A study of Bos taurus with 15 samples.

Results

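Cells labelled as bovine endometrial epithelial cells, from the lining of the uterus, were compared between wells with morulae. In some wells the morulae lay directly on the cell layer, and in the others they were held in a transwell insert above it. The comparison used the 5 libraries labelled as embryos with contact (numbers 107, 108, 28, 87 and 97) and the 5 labelled as embryos without contact (numbers 109, 110, 30, 89 and 90), 10 of the 15 libraries of the study. The remaining 5 libraries, from cells without embryos, served as a control level and entered the estimate of the spread. Values per library follow these orders, and control values a fixed order of their own. All 12559 of 19994 genes with a value of 10 or more in at least 5 libraries were tested.

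Per the labels' protocols, the cells were scraped from the uterine horns of beef cows after death, those of 4 uteri were pooled, and the pooled stock was used at passage 3. In every group the layer was 90% confluent, carried a transwell and was kept for 48 h in 150 µL of synthetic oviductal fluid with 5% serum. Both embryo groups received in vitro produced morulae of day 5.5, 15 ± 1 per well, and the control wells received none. The labels describe repeated experiments with several wells each but tie no library to an experiment, so a p-value here reflects how far cultures of 1 pooled stock vary, and not how far cows vary.

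The morula precedes the blastocyst, whose outer cells, the trophectoderm, make interferon tau, the signal of pregnancy recognition in ruminants. Type I interferons bind a receptor of the subunits IFNAR1 and IFNAR2, which acts through Janus kinases on STAT proteins. These join IRF9 and switch on interferon-stimulated genes, many of which block viruses or present antigen. A transwell membrane lets soluble factors pass and prevents touch between the embryo and the cells.

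Reads assigned to genes numbered 16670801 to 19268029 in contact libraries 107, 28 and 87, and 6104652 and 4195091 in contact libraries 108 and 97. They numbered 12938091 to 19792557 in no contact libraries and 15507719 to 18618467 in control libraries. In a principal component analysis of the 10 embryo libraries the first component carried 30.5% of the variance and separated all contact libraries from all no contact libraries. Contact 97 lay farthest to the contact side, and no contact 90 farthest to the other side. Library numbers fall into runs (28 and 30, then 87 to 90, then 97 alone, then 107 to 110, with controls in 3 of the 4), which the labels do not explain. Differences within the first run, the second and the last are given in that order beside the main results.

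The cells carried epithelial keratins, with KRT8 at 30046 to 39121 scaled reads in contact, 30050 to 40317 without contact and 29337 to 39003 in control libraries, and E-cadherin (CDH1) at 1377 to 1698, 952 to 1536 and 1133 to 1349. KRT18 had 5239 to 8780 with contact, 6346 to 10409 without contact and 6750.5 to 10558 in control libraries. KRT19 had 10129 to 15420, 11807 to 17682 and 12936 to 16145. Several other defining epithelial markers were low or at 0. EPCAM reached at most 3.36 with contact, 1.62 without contact and 0.969 in control libraries, and KRT5, KRT14, KRT23, CLDN3, CLDN4 and GRHL2 were also too low to be tested. Stromal genes were read at high levels, and 16 of 18 markers could be tested. COL1A1 had 82924 to 101580 with contact, 82259 to 110530 without contact and 89962 to 116620 in control libraries. COL3A1 had 93724 to 122030, 73544 to 107010 and 89355 to 108110. DCN had 35242 to 44862, 32385 to 38474 and 31731 to 37900, and VIM 13556 to 17183, 15392 to 20834 and 15676 to 18942. The stromal markers THY1 and TCF21 were too low to be tested. The summed epithelial list took 3429 to 4501 RPM (reads scaled to the library total) in contact, 3532 to 4724 without contact and 3578 to 4525 in control libraries, and the stromal list 24480 to 27710, 21660 to 25580 and 24340 to 25920. Neither sum separated the groups. In every group the stromal sum exceeded the epithelial sum. The label names epithelial cells, while these markers were mixed and in part went against it. The share of each cell type cannot be told from bulk RNA. Of 12 tested epithelial markers limma called 0 (0 at an unadjusted p under 0.05, 0 by DESeq2 and 0 by edgeR), and of 16 stromal markers it called 1, the serine protease FAP, which was lower with contact.

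Most genes gave no call between the embryo groups. limma, on log2(value + 1) with Benjamini-Hochberg adjustment at 0.05, called 469 genes higher in contact than in no contact cells (3.73% of those tested) and 229 lower (1.82%). Of these, 53 were higher by over 2-fold (0.422%) and 11 lower (0.0876%). All contact libraries were above all no contact libraries in 432 genes (3.44%) and below them in 251 (2%). The median log2 fold change was 0.57 over the genes called higher, -0.39 over those called lower, and 0.01 over all genes tested. The lists described below cover part of each side, and their counts are to be read beside these shares over all genes. The lower count changed with the library left out, and no 1 library carried it. It was 115 without contact 97, 142 without contact 28, 145 without contact 87, 116 without no contact 30, 131 without no contact 89 and 349 without no contact 109, while the count of higher genes stayed between 325 and 561 when any 1 library was left out.

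**Figure D1:**
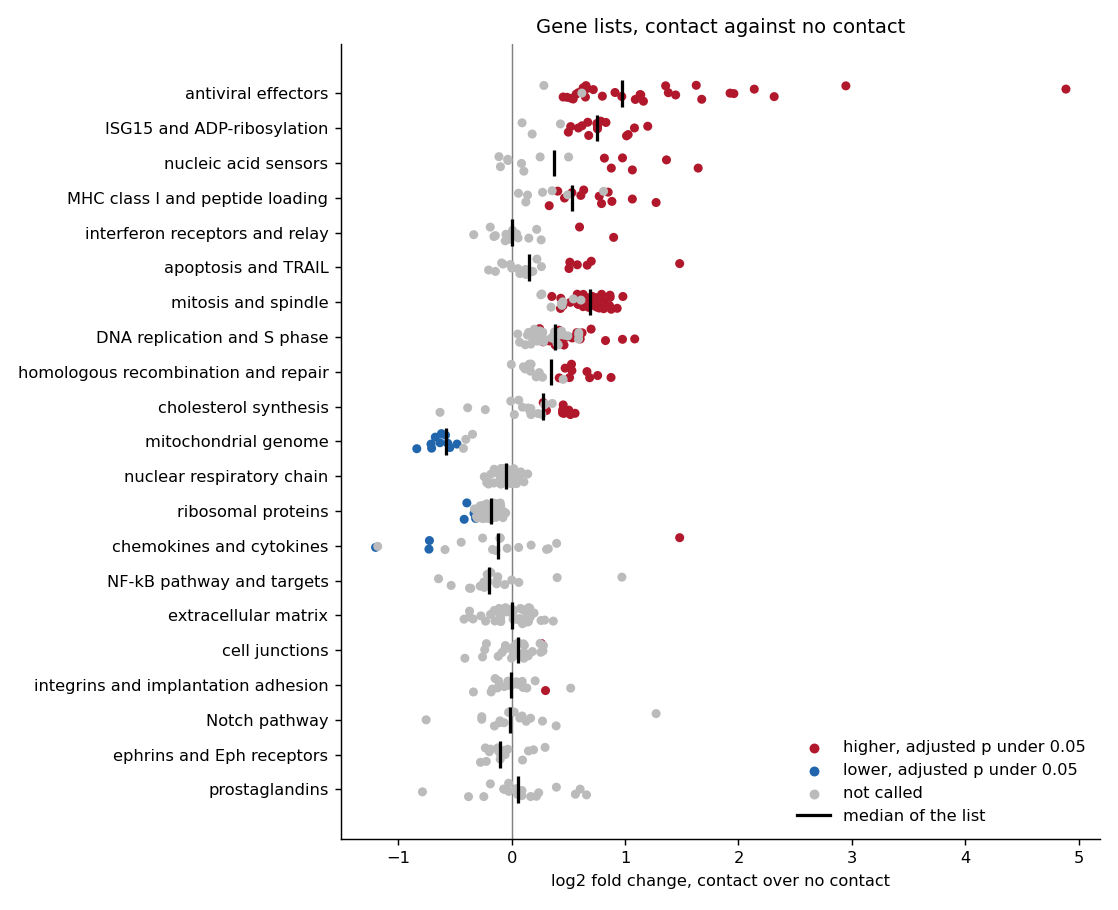
Each point is 1 tested gene of a list, at its log2 fold change of contact over no contact (horizontal axis), red where called higher, blue where called lower and grey where not called by limma, and black bars are list medians. The antiviral list has a median of 0.97, the mitosis list of 0.69 and the mitochondrial genome of -0.58, while the lists of adhesion and contact signalling lie around 0.

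Antiviral effectors, the end products of the interferon response, were higher with contact in 29 of 31 tested members. Their median log2 change was 0.97, beside 0.01 over all genes. In 28 of the 31 the contact libraries lay above the no contact libraries without overlap, beside 3.44% of all genes. The step ranged from 0.28 to 4.89 on the log2 scale. The median was 1.31, 1.03 and 0.72 within the runs of library numbers. Against control cells the same list had medians of 6.22 with contact and 4.05 without, 2 comparisons that share the control libraries.

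MX2, a dynamin-like GTPase that blocks virus replication, had the largest step. Its values were 836, 669.8, 3381, 2194 and 1314 scaled reads in contact, 59.1, 32.4, 17, 85.4 and 76.1 without contact and 0, 0.903, 1.63, 0 and 0.855 in control libraries. The lowest contact library was thus above the highest no contact library, and MX2 was 31.1-fold higher by the ratio of the group means (log2 change 4.89 ± 0.50 SE, limma adjusted p = 2.10e-05). IFIT2, of a family that binds foreign RNA and restrains its translation, had 1463, 1399, 3540.3, 2241 and 1828 with contact, 290.1, 218, 173, 317 and 308 without contact and 14.1, 12.6, 20.4, 19.4 and 12 in controls (log2 change 2.95 ± 0.24 SE, limma adjusted p = 1.20e-06). Its relative IFIT3 followed with 712, 705, 2149, 1292 and 938 with contact, 219.8, 164, 152, 245 and 312 without contact and 33.7, 32.5, 44, 53.3 and 51.3 in controls (log2 change 2.32 ± 0.29 SE, limma adjusted p = 0.000133). The groups did not overlap in either gene, and contact 28 held the highest value of all 3 genes while no contact 30, of the same run of numbers, held the lowest of the embryo libraries.

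Other members rose by smaller amounts. RSAD2, or viperin, which makes a nucleotide that ends viral RNA chains, had 5321, 5549, 9851, 6801 and 5226 with contact and 1719, 1356, 1118, 1943 and 2289 without, against 5.48 to 18.7 in control (log2 change 1.96 ± 0.32 SE, limma adjusted p = 0.00222). CMPK2, a nucleotide kinase of mitochondria, was higher by 1.68 ± 0.15, the guanylate-binding protein GBP4 by 1.93 ± 0.15 and IFI44 by 2.14 ± 0.33 on the log2 scale (limma adjusted p = 1.10e-06, 1.51e-07 and 0.000721). MX1, the best known of these genes in ruminant pregnancy, had 24559, 24132, 31744, 29279 and 24357 with contact and 12842, 11359, 10194, 11498 and 13968 without, against 75.6 to 138 in control (log2 change 1.16 ± 0.13 SE, limma adjusted p = 1.23e-05). IFIT1 and IFIT5 had steps of 1.13 and 0.63, well under those of IFIT2 and IFIT3, and the 4 genes were all free of overlap between the embryo groups. IFITM3, at 0.28 ± 0.09 (limma adjusted p = 0.0729), and ISG20 were the 2 members that did not pass, and both did by DESeq2 and with the run as a block (0.00185 for IFITM3). OAS1X and OAS1Y, like the guanylate-binding proteins and the MHC genes, have near-identical copies between which reads can be split, and their values are uncertain.

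**Figure D2:**
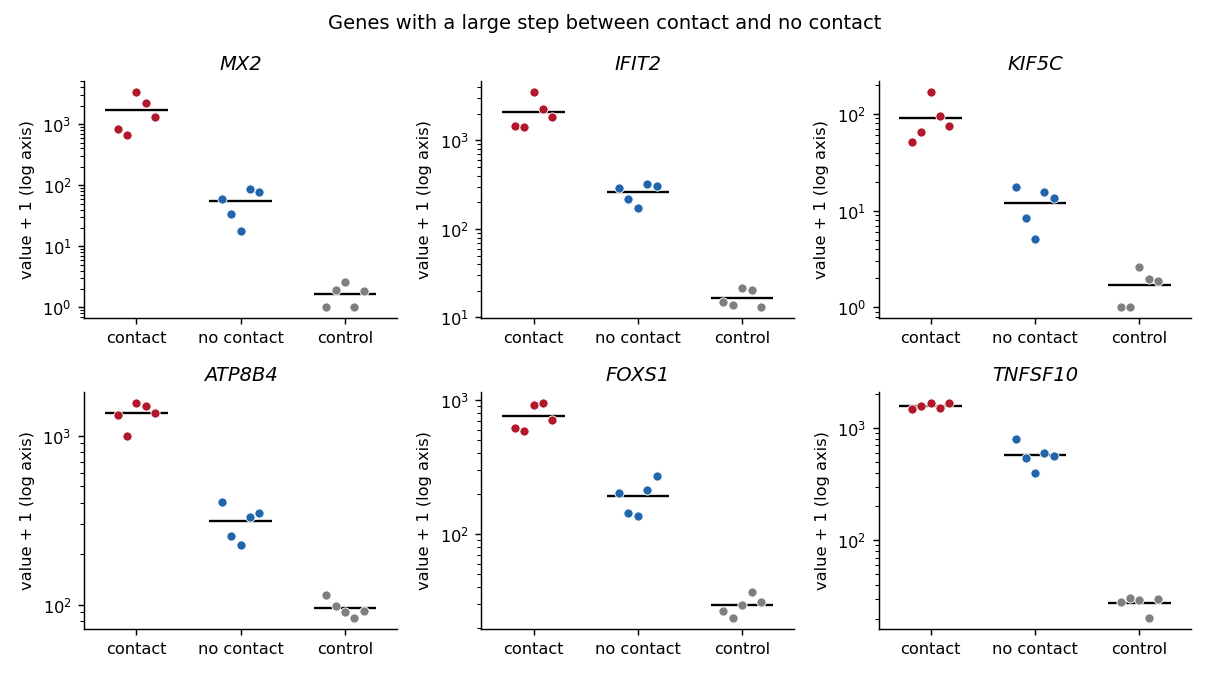
Scaled reads plus 1 on a log axis in each library of 6 genes with a large step, with the contact libraries in red, no contact in blue and control in grey, and a bar at each group mean. In each of the 6 genes all contact points lie above all no contact points, and MX2 spans 669.8 to 3381 with contact and 17 to 85.4 without.

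ISG15, a ubiquitin-like protein that is attached to other proteins, and the enzymes that attach it or ADP-ribose made a list in which 16 of 19 members were higher with contact, with a median of 0.75 and medians of 1.05, 0.72 and 0.62 within the runs. UBA7, which activates ISG15, had 6402, 6278, 8872, 7603 and 6536 with contact and 3639, 2954, 2971, 4196 and 3944 without, against 155 to 189.8 in control (log2 change 1.01 ± 0.11 SE, limma adjusted p = 3.46e-06). HERC5, its ligase, was higher by 1.20 ± 0.11, and USP18, which removes it, by 0.76 ± 0.08 (limma adjusted p = 1.36e-06 and 5.78e-06). DTX3L and PARP9, a ubiquitin ligase and the ADP-ribosyltransferase it works with, were higher by 1.03 ± 0.09 and 0.75 ± 0.07, and PARP12 by 0.76 ± 0.07 (limma adjusted p = 9.43e-07, 1.32e-06 and 1.08e-06). ISG15 itself had 4527, 4249.9, 6831, 5707 and 4429 with contact and 2293, 2179, 1944, 2453 and 3262 without, without overlap, against 6.26 to 24.4 in control (log2 change 1.08 ± 0.30 SE, limma adjusted p = 0.0481). That call was lost in 16 of 28 alternatives, 12 of them leaving out 1 library, where the limma adjusted p was 0.0552 to 0.107.

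Sensors of foreign nucleic acid rose in 6 of 14 members. The cytosolic RNA sensors IFIH1, DDX58 and DHX58 were higher by 1.37 ± 0.13, 0.82 ± 0.10 and 0.88 ± 0.11 (limma adjusted p = 1.50e-06, 2.88e-05 and 3.03e-05). The DNA sensor CGAS had 204, 177, 243, 262 and 255 with contact and 137, 97.2, 87.7, 106 and 157 without, against 32.5 to 45.4 in control (log2 change 0.98 ± 0.16 SE, limma adjusted p = 0.000383), and ZBP1, a sensor of left-handed nucleic acid, was higher by 1.64 ± 0.26 (limma adjusted p = 0.00109). The adaptor MAVS, through which IFIH1 and DDX58 signal, stood at 0.11 ± 0.16 and the endosomal receptor TLR3 at 0.25 ± 0.08 (limma adjusted p = 0.746 and 0.0844), so neither passed.

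The receptor and most of its relay showed no such step. Of 16 genes for interferon receptors, kinases, STAT proteins and inhibitors, 2 were called higher and 0 lower (1 lower at an unadjusted p under 0.05, 0 by DESeq2 and 0 by edgeR), with a median of 0.00. STAT2, a member that passed, had 1491, 1458, 1935, 1539 and 1385 with contact, 1035, 990.1, 993, 1099 and 1004 without contact and 769.6, 759, 739, 766 and 754 in controls (log2 change 0.60 ± 0.07 SE, limma adjusted p = 2.10e-05), and its 3 groups were separate. IRF9, its partner, did not pass, with 2682, 2623, 3137, 3122 and 2756 with contact, 2443, 2317, 2387, 2794 and 3133 without contact and 391, 388, 411, 363 and 396 in controls (log2 change 0.14 ± 0.08 SE, limma adjusted p = 0.356). Its embryo groups overlapped, and both lay far above the control libraries. The receptor subunits stood at -0.14 ± 0.12 for IFNAR1 and -0.06 ± 0.10 for IFNAR2, and the kinase JAK2 at 0.26 ± 0.10 (limma adjusted p = 0.531, 0.8 and 0.125). Of 8 interferon regulatory factors and relatives 3 were called higher, BATF2 at 0.94 ± 0.20, IRF1 at 0.78 ± 0.19 and IRF3 (limma adjusted p = 0.00675, 0.0233 and 0.045). The call of IRF1 was lost without contact 28 (0.0635) or 87 (0.0624) or no contact 110 (0.0541) or 30 (0.0545), and that of IRF3 in 16 of 28 alternatives, 12 of them leaving out 1 library.

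Antigen presentation on MHC class I rose in 12 of 19 members, with a median of 0.53 and medians of 0.81, 0.51 and 0.44 within the runs. B2M, the light chain of every class I molecule, had 13095, 13219, 17998, 16813 and 15106 with contact, 9035, 7899.8, 8060.4, 7029 and 9126 without contact and 3463, 3261, 3731, 3011 and 3139.9 in controls (log2 change 0.88 ± 0.09 SE, limma adjusted p = 3.40e-06). The 3 groups were fully separate. ERAP2, which trims peptides for loading, was higher by 0.85 ± 0.09, TAP1, which carries them into the endoplasmic reticulum, by 0.79 ± 0.14, and PSMB8, an immunoproteasome subunit, by 0.61 ± 0.10 (limma adjusted p = 2.65e-06, 0.00184 and 0.00036). In the MHC class II list 1 of 7 members passed, BOLA-DMB, a chain of the molecule that loads class II peptides, with 93.7, 89.6, 144, 145 and 90.7 with contact and 42.4, 44, 50.3, 62.3 and 58.2 without (log2 change 1.09 ± 0.18 SE, limma adjusted p = 0.000494). In bulk RNA, more cells that express a gene and more RNA per cell cannot be told apart, here or below.

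Several of the clearest steps lay outside the textbook interferon lists. ATP8B4, a flippase that moves phospholipids between the leaflets of membranes, had the smallest p of all genes, with 1328, 995, 1566, 1499.5 and 1354 with contact, 405, 255, 226, 327 and 349.7 without contact and 114, 97.6, 89.6, 82.3 and 90.6 in controls (log2 change 2.12 ± 0.14 SE, limma adjusted p = 1.09e-07). The forkhead transcription factor FOXS1 had 617, 589.6, 920.2, 959 and 709 with contact, 203, 144, 136, 212 and 268 without contact and 25.8, 22.6, 28.5, 35.8 and 29.9 in controls (log2 change 1.99 ± 0.18 SE, limma adjusted p = 1.10e-06). The groups were separate in both genes, and within the runs the differences were 2.79, 2.15 and 1.84 for ATP8B4 and 2.75, 2.00 and 1.81 for FOXS1. KIF5C, a kinesin heavy chain known mainly from neurons, had 49.8, 63.7, 169, 95.1 and 73.9 with contact, 16.7, 7.48, 4.06, 14.5 and 12.7 without contact and 0, 0, 1.63, 0.969 and 0.855 in controls (log2 change 2.92 ± 0.39 SE, limma adjusted p = 4.87e-05). Its level was low, and it was hardly detected without embryos. PSMF1, an inhibitor of the proteasome core, had 1705, 1913, 2327, 2228 and 1768 with contact, 989, 895, 925, 1152 and 988 without contact and 515, 653, 542, 620.0 and 634 in controls (log2 change 1.00 ± 0.09 SE, limma adjusted p = 9.73e-07).

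TNFSF10, or TRAIL, a ligand that can trigger death of cells with its receptors, had 1475, 1545, 1671, 1483 and 1674 with contact, 792, 539, 394, 589.8 and 556 without contact and 27.4, 29.8, 28.5, 19.4 and 29.1 in controls (log2 change 1.48 ± 0.14 SE, limma adjusted p = 1.32e-06). The 5 contact libraries lay close together and well above the rest. In the list of apoptosis genes 6 of 21 were higher with contact and 0 lower (1 lower at an unadjusted p under 0.05, 1 by DESeq2 and 0 by edgeR), with a median of 0.15. The initiating protease CASP8 was higher by 0.51 ± 0.09, the inflammatory caspase CASP4 by 0.58 ± 0.09, and MLKL, which punctures membranes in necroptosis, by 0.70 ± 0.13 (limma adjusted p = 0.00115, 0.000259 and 0.00134). Another of the 6, BIRC5 or survivin, is also a mitotic protein and was counted with mitosis too.

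Genes of mitosis were higher with contact as a group. Of 50 tested genes of the spindle, the kinetochore and the mitotic cyclins, 42 were called higher and 0 lower (0 lower at an unadjusted p under 0.05, 0 by DESeq2 and 0 by edgeR), with a median log2 fold change of 0.69. All 50 fold changes were positive, and in 26 genes the contact libraries lay above the no contact libraries without overlap, beside 3.44% of all genes. The median was 0.59, 0.83 and 0.51 within the runs. In contact against control, where 7.17% of all genes were called higher and 5.78% lower, 40 of the 50 were higher, with a median of 0.60. In no contact against control, where 1.48% were higher and 0.111% lower, 0 of the 50 were called, with a median of -0.07. Both comparisons share the control libraries. Without both shallow contact libraries 32 were called.

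TOP2A, the topoisomerase that untangles chromosomes before division, had 532, 632, 619, 751 and 924 with contact, 355, 418, 374, 384 and 427 without contact and 424, 399, 397, 367 and 492 in controls (log2 change 0.80 ± 0.11 SE, limma adjusted p = 0.000142). SMC2, a condensin subunit, had 435, 488, 574, 597 and 622 with contact, 325, 336, 347, 312 and 285 without contact and 327, 363, 331, 296 and 410.4 in controls (log2 change 0.75 ± 0.10 SE, limma adjusted p = 6.17e-05). Every contact library exceeded every other library in both genes, whereas the no contact and control libraries overlapped. DLGAP5, which stabilises spindle microtubules, was higher by 0.98 ± 0.14 and ANLN, a scaffold of the cleavage furrow, by 0.79 ± 0.11 (limma adjusted p = 7.82e-05 and 0.000124). The mitotic cyclin CCNB1 had 127, 179, 181, 213 and 229 with contact and 80.3, 105, 115, 77.7 and 129 without, where contact 107 fell within the range of the no contact libraries (log2 change 0.87 ± 0.16 SE, limma adjusted p = 0.00207).

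Genes of replication were called higher as well, in smaller number. Of 49 genes of S phase 18 were called higher and 0 lower (0 lower at an unadjusted p under 0.05, 0 by DESeq2 and 0 by edgeR), with a median of 0.38 and medians of 0.41, 0.36 and 0.27 within the runs. The count was 11 without contact 28, contact 87 or no contact 110, and 10 without contact 97. CLSPN, a checkpoint adaptor at the fork, ranged over 92 to 208 with contact and 54.4 to 68.9 without (log2 change 0.98 ± 0.18 SE, limma adjusted p = 0.00129). The helicase subunits MCM3 and MCM6 were higher by 0.58 ± 0.09 and 0.41 ± 0.07 and the transcriptional repressor E2F8 by 1.09 ± 0.21 (limma adjusted p = 0.000225, 0.00139 and 0.00273). PCNA, the sliding clamp of the polymerases, missed the threshold at 0.44 ± 0.13 (limma adjusted p = 0.0543) and passed with the run as a block (0.0384), by DESeq2 (0.0245) and without contact 107 (0.0168), contact 108 (0.0342) or no contact 90 (0.00384). Of 20 genes of recombination repair 9 were higher, with a median of 0.35, among them BARD1, the partner of BRCA1, at 0.88 ± 0.14 and BRCA2, which loads the recombinase, at 0.53 ± 0.08 (limma adjusted p = 0.000494 and 0.000194).

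Among 25 genes that restrain the cycle or answer to p53, 1 was higher and 1 lower, near the shares of 3.73% and 1.82% over all genes. The lower was CDKN1A, the p21 inhibitor of cyclin-dependent kinases, with 4660.3, 4816, 3708, 4250.3 and 4019 with contact, 5160.2, 6060.1, 5448, 5576 and 4796 without contact and 6974, 7059, 6548, 6779 and 6435 in controls (log2 change -0.34 ± 0.08 SE, limma adjusted p = 0.0103). Contact 108 lay within the range of the no contact libraries, and all control libraries lay above both embryo groups. The higher was SESN2, a stress sensor that restrains growth signalling, whose call was lost in 7 of 28 alternatives.

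The contact libraries differed among themselves in which response was strong. Contact 28 held the highest contact value of 27 of the 29 called antiviral effectors, 13 of the 16 called genes of the ISG15 list and 11 of the 12 called MHC class I genes. For mitosis it was contact 97 in 29 of the 42 called genes and contact 87 in 11, while contact 107 was the lowest in 31. Contact 97 is also the library of fewest reads and has a run of numbers to itself. Without contact 97, 30 antiviral effectors, 34 mitosis genes and 9 mitochondrial genes were called.

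**Figure D3:**
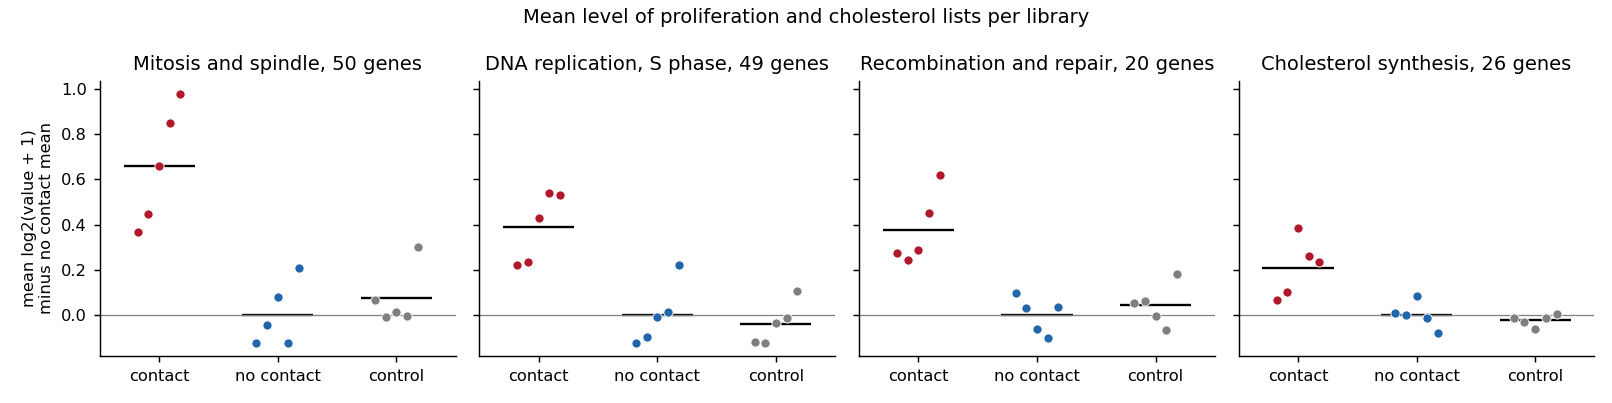
Mean log2(value + 1) over the tested genes of 4 lists in each library, relative to the mean of the no contact libraries, with contact in red, no contact in blue, control in grey and bars at the group means. The mitosis list lies between 0.37 and 0.98 in the contact libraries, between -0.12 and 0.21 in the no contact libraries and between -0.01 and 0.30 in the control libraries.

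Genes of cholesterol synthesis and uptake, which are governed by the sterol-sensing factor SREBP2, were higher in 10 of 26 members and lower in 0 (2 lower at an unadjusted p under 0.05, 0 by DESeq2 and 0 by edgeR). The median was 0.27, and within the runs 0.36, 0.39 and 0.10. In 6 of the 26 the contact libraries lay above the no contact libraries without overlap, beside 3.44% of all genes. Per library the mean log2 level of the list, relative to the no contact mean, was 0.065 to 0.387 with contact and -0.079 to 0.085 without. These ranges overlapped, with contact 107 the lowest contact library. HMGCS1, an early enzyme of the pathway, had 779, 847, 1089.8, 951 and 991 with contact, 688, 676, 731, 570.1 and 579 without contact and 654, 619.8, 568, 631 and 649 in controls (log2 change 0.52 ± 0.09 SE, limma adjusted p = 0.00084). In this gene the contact libraries lay above all others.

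Among 41 genes of glycolysis, pyruvate handling and hypoxia 2 were higher and 2 lower, with a median of -0.09, beside 3.73% higher and 1.82% lower over all genes. PDK2, a kinase that restrains pyruvate dehydrogenase and so the entry of pyruvate into respiration, had 331, 335, 315, 305 and 299 with contact, 438, 464, 447, 454 and 415 without contact and 516, 604, 508, 534 and 548 in controls (log2 change -0.48 ± 0.07 SE, limma adjusted p = 9.96e-05). The 3 groups were separate, and the difference was much the same within the runs, at -0.50, -0.51 and -0.44. The glucose transporter SLC2A1 was higher by 0.44 ± 0.10 (limma adjusted p = 0.00813), although contact 108 lay within the no contact range. The calls of the remaining pair, P4HA1, a collagen prolyl hydroxylase, and ALDOA, an aldolase, were lost in 10 and 15 of 28 alternatives.

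Transcripts of the mitochondrial genome were lower with contact. They took 7.02% ± 0.395 of reads in contact, 9.62% ± 1.43 without contact and 9.71% ± 1.09 in control libraries (SD, n = 5 each). By library the shares were 6.62%, 7.28%, 6.90%, 7.57% and 6.74% with contact, 8.22%, 8.72%, 9.40%, 9.85% and 11.9% in no contact, and 8.41%, 8.65%, 10.2%, 10.7% and 10.5% in control cells. All contact libraries lay below all others, a difference of -2.60 percentage points from no contact (two-sided exact permutation p = 0.00794, the smallest that 5 libraries against 5 allow, and the same after Benjamini-Hochberg adjustment over 2 library measures). Within the runs the difference was -2.50, -3.32 and -1.52 points. The other measure, the share of reads held by the 10 genes with most reads, was lower as well, at 12.6% ± 0.510 with contact, 14.2% ± 0.566 without contact and 14.9% ± 0.637 in control libraries (SD, n = 5 each; the same exact permutation p), and its part in the difference was not tested. Mitochondrial genes were not left out of the 10, so the 2 measures can share reads and are not separate results.

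Of the 13 protein-coding mitochondrial genes 10 were called lower and 0 higher (0 higher at an unadjusted p under 0.05, 0 by DESeq2 and 0 by edgeR). All 13 were called lower by DESeq2, likewise in the fit that blocked on the run, and 11 by edgeR. In 12 the contact libraries lay below the no contact libraries without overlap, beside 2% of all genes. Fold changes ran from -0.84 to -0.35 on the log2 scale, with a median of -0.58 and medians of -0.59, -0.66 and -0.41 within the runs. CYTB, of respiratory complex III, had 40970.2, 45761, 44050.0, 43960.5 and 40612 with contact, 61071, 66450.5, 83044, 81779 and 97049.8 without contact and 65243, 66273, 95026, 90216 and 88346 in controls (log2 change -0.84 ± 0.12 SE, limma adjusted p = 0.000167). ND5 and ND4L, of complex I, were lower as well, at -0.67 ± 0.11 and -0.62 ± 0.10 on the log2 scale (limma adjusted p = 0.000812 and 0.000529). ND6, read from the opposite strand of the mitochondrial genome, was lower too, at -0.71 ± 0.11 (limma adjusted p = 0.000361). COX1, COX2 and ND2 did not pass in the fit without a block. ND2 stood at -0.40 ± 0.14 (limma adjusted p = 0.0994), and was called with the run as a block (0.00277) and by DESeq2 (0.0373). The strand setting of the counting is not given in the sources used here, so reads of overlapping mitochondrial transcripts are uncertain.

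The nuclear genes of the same complexes gave no call. Of 43 tested, limma called 0 (0 higher and 3 lower at an unadjusted p under 0.05, 0 by DESeq2 and 0 by edgeR), with fold changes between -0.24 and 0.14 and a median of -0.05. They took 3083 to 3289 RPM with contact, 2975 to 3471 without contact and 2960 to 3171 in control libraries. Of 17 factors that transcribe, copy or process mitochondrial RNA, PNPT1 was higher and SLIRP lower, beside 3.73% higher and 1.82% lower over all genes. PNPT1, an exoribonuclease that takes part in the decay of mitochondrial RNA, had 2943, 2943, 3675, 3816 and 3532 with contact, 2079, 1875, 1458, 1691 and 2335 without contact and 607, 583, 629, 642 and 646 in controls (log2 change 0.85 ± 0.10 SE, limma adjusted p = 1.97e-05). The 3 groups were separate. SLIRP, which stabilises mitochondrial messengers with LRPPRC, was lower, at -0.31 ± 0.09 on the log2 scale, a call lost in 20 of 28 alternatives, and LRPPRC stood at 0.22 ± 0.07 and the transcription factor TFAM at 0.19 ± 0.10 (limma adjusted p = 0.0455, 0.0572 and 0.285).

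**Figure D4:**
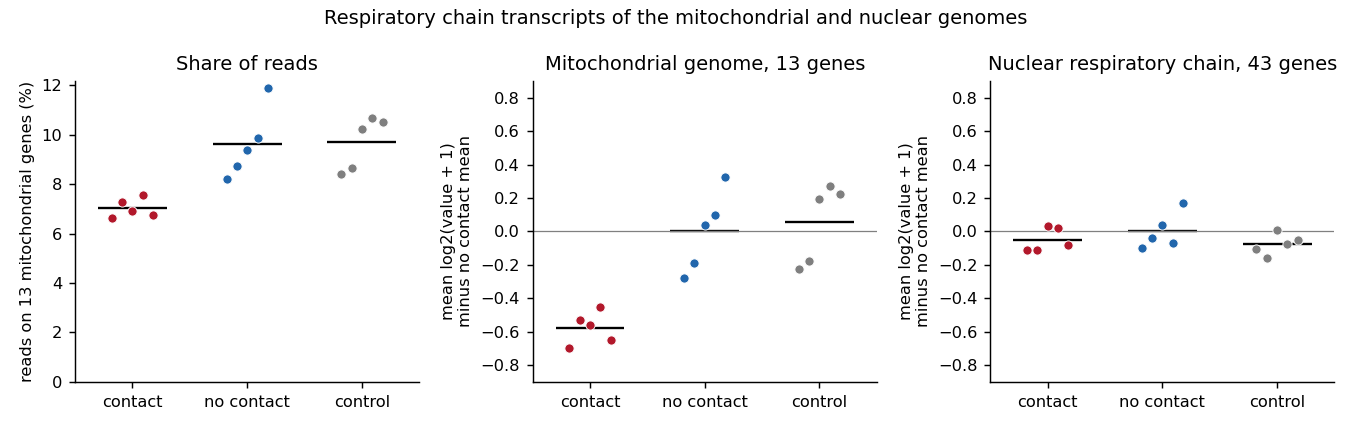
The left panel gives the percentage of reads on 13 mitochondrial genes in each library, and the middle and right panels the mean log2(value + 1) of the mitochondrial and the nuclear respiratory chain genes relative to the mean of the no contact libraries, with contact in red, no contact in blue and control in grey and bars at the group means. The mitochondrial mean lies between -0.70 and -0.45 with contact and between -0.28 and 0.33 without, and the nuclear mean between -0.11 and 0.03 with contact and between -0.10 and 0.17 without.

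Ribosomal protein genes leaned the same way by little. All 72 tested had negative fold changes, between -0.42 and -0.05 with a median of -0.18, and 6 were called lower, among them RPL13 at -0.39 ± 0.09 and RPL11 at -0.28 ± 0.07 (limma adjusted p = 0.0145 and 0.0142). The medians within the runs were -0.13, -0.21 and -0.09. Per library the mean log2 level of the list, relative to the no contact mean, overlapped between the groups. It was -0.29 to -0.06 with contact, -0.23 to 0.29 without contact and -0.27 to -0.003 in control libraries. The count was 3 without contact 107, 2 without contact 97, 3 without no contact 30, 16 without no contact 109, 12 by DESeq2, 12 with the run as a block, 3 with only the embryo libraries fitted and 0 without both shallow contact libraries. Of 24 genes of ribosome assembly limma called 0 (2 higher and 0 lower at an unadjusted p under 0.05, 1 higher by DESeq2 and 0 by edgeR).

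Among the genes that fell, CEMIP, a protein of hyaluronan breakdown, was the most abundant with a change over 2-fold. It had 6751, 6752, 5718, 5090.0 and 6335 with contact, 12482, 13919, 16155, 17759 and 10456 without contact and 18104, 17328, 23287, 22302 and 22134 in controls (log2 change -1.19 ± 0.13 SE, limma adjusted p = 5.18e-06). All contact libraries lay below the rest, while the no contact and control ranges overlapped, and within the runs the difference was -1.50, -1.42 and -0.96. Of 10 tested only HMMR, a hyaluronan receptor that also serves the mitotic spindle, was called besides, and it was higher, by 0.43 ± 0.10 (limma adjusted p = 0.0163, and 0.0579 without contact 87).

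Matrix proteases fell singly. ADAMTS1, a secreted protease that cuts proteoglycans, had 1595, 1733, 1315, 1364 and 1657 with contact, 2125, 2662, 2188, 2811 and 2523 without contact and 3068, 2979.5, 4164, 3901 and 4057 in controls (log2 change -0.68 ± 0.11 SE, limma adjusted p = 0.000401). FAP, a cell-surface serine protease known from activated fibroblasts, had 1107, 1113, 938, 1046 and 1213 with contact, 1585, 1574, 1371, 1445 and 1555 without contact and 1512, 1627, 1603, 1752 and 1763 in controls (log2 change -0.48 ± 0.07 SE, limma adjusted p = 0.000184). In both genes every contact library lay below every other library. In the list of 23 proteases and inhibitors ADAMTS1 and MMP16 were lower and PLAT, which activates plasminogen, higher, by 0.37 ± 0.06 (limma adjusted p = 0.000396), and the call of MMP16 was lost in 11 of 28 alternatives. The shares over all genes were 1.82% lower and 3.73% higher. The 46 genes of the matrix itself gave 0 calls with limma (2 higher and 4 lower at an unadjusted p under 0.05, 1 higher and 1 lower by DESeq2, 0 by edgeR), with a median of 0.00.

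The neutrophil-attracting chemokines were the lower members of the cytokine list, in which 1 of 18 genes was higher (TNFSF10) and 3 lower. CXCL8, or interleukin 8, had 90.8, 63.7, 43.4, 42.4 and 40.3 with contact, 113, 147, 119, 108 and 136 without contact and 149.5, 144, 152, 114 and 144 in controls (log2 change -1.20 ± 0.18 SE, limma adjusted p = 0.00019). All contact libraries lay below the rest, contact 107 closest to them. CXCL5 and GRO1, which bind the same receptor family, stood at -0.73 ± 0.17 and -0.72 ± 0.19 (limma adjusted p = 0.0207 and 0.0265). CXCL5 lost its call without contact 97 (0.0557) or no contact 30 (0.0595) or 90 (0.0691), and GRO1 without contact 28 (0.0687) or 87 (0.0604) or no contact 110 (0.0630) or 30 (0.0740). Of 18 genes of NF-kB, the factor that drives many of these chemokines, limma called 0 (0 higher and 4 lower at an unadjusted p under 0.05, 0 by DESeq2 and 0 by edgeR), with a median of -0.20 and medians of -0.24, -0.37 and 0.07 within the runs. JUNB, a component of the AP-1 transcription factor, was the single call among 25 immediate early genes, at -0.51 ± 0.11 (limma adjusted p = 0.00528). Over all genes 1.82% were called lower.

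Some of the lower genes encode proteins of the cytoskeleton. MYBPH, a myosin-binding protein, had 98.8, 61.3, 57.1, 50.2 and 53.8 with contact, 112, 149, 114, 180.1 and 198 without contact and 126, 137, 183, 218 and 224 in controls (log2 change -1.22 ± 0.21 SE, limma adjusted p = 0.000941). XIRP1, an actin-binding protein known from muscle, had 191, 231, 110.1, 113 and 121 with contact, 261, 305, 328, 305 and 268 without contact and 359, 351, 568, 532 and 501 in controls (log2 change -0.99 ± 0.19 SE, limma adjusted p = 0.00416). In both genes the contact libraries lay below the others, and contact 107 and 108 were the least reduced for XIRP1, where the difference within the last run was -0.42 beside -1.57 and -1.33 in the other runs. TPPP3, which binds microtubules, was low and uneven, with 17.6, 28.3, 24.9, 18.2 and 3.36 with contact and 35.7, 49, 68.2, 46.1 and 92.5 without (log2 change -1.78 ± 0.41 SE, limma adjusted p = 0.0158). Its call was lost when only the embryo libraries were fitted (limma adjusted p = 0.0506).

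**Figure D5:**
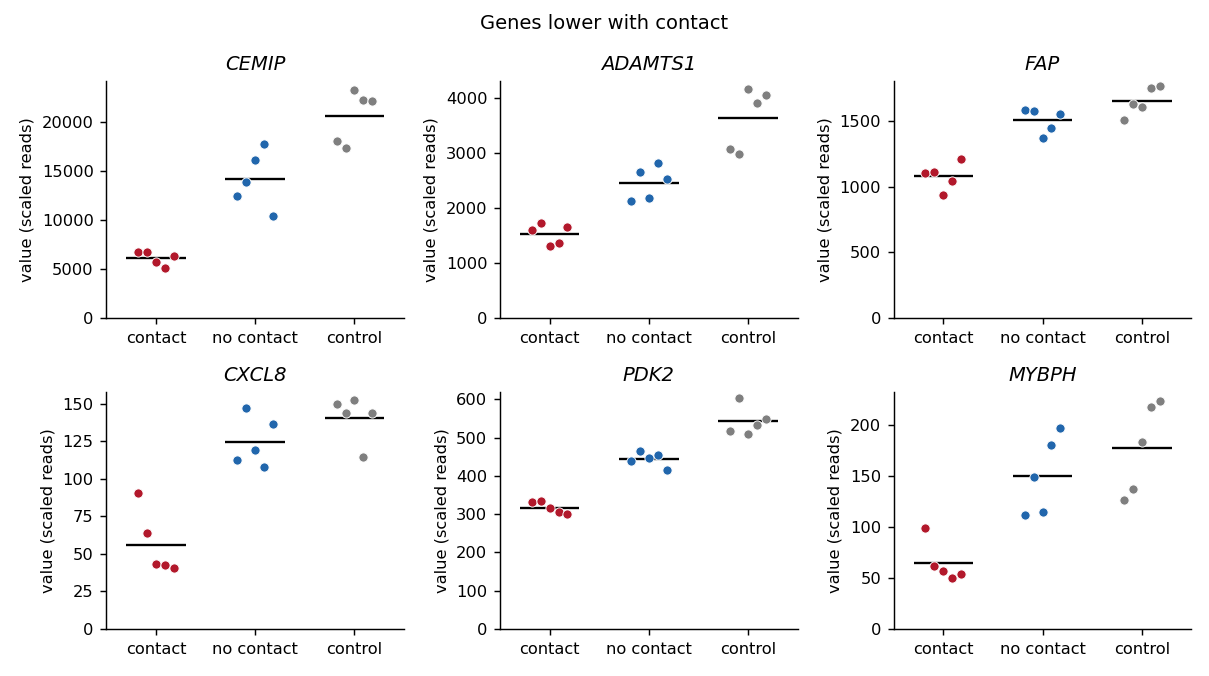
Scaled reads in each library of 6 genes called lower with contact, on linear axes from 0, with contact in red, no contact in blue and control in grey and bars at the group means. In all 6 the contact points lie below the no contact points, for CEMIP at 5090 to 6752 with contact and 10456 to 17759 without.

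Genes through which cells sense or hold their neighbours made 6 lists. Over these (cell junctions, integrins and implantation adhesion, Notch, ephrins, semaphorins and YAP targets) 3 of 122 tested genes were called higher and 0 lower, with a median of -0.00. The shares over all genes were 3.73% and 1.82%. The 3 were the desmosomal plakin DSP at 0.26 ± 0.07, the laminin-binding integrin subunit ITGA6 at 0.30 ± 0.08 and the semaphorin co-receptor NRP2 at 0.45 ± 0.13 (limma adjusted p = 0.0376, 0.0253 and 0.0446). Their calls were lost in 10, 7 and 17 of 28 alternatives. ITGA6 was lost without contact 28 (0.0545) or 97 (0.0817) or no contact 30 (0.0521) or 89 (0.0662). Of 17 YAP targets limma, DESeq2 and edgeR called 0, with 0 at an unadjusted p under 0.05 and all fold changes between -0.14 and 0.27.

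Of 17 Notch genes limma called 0 (3 higher and 0 lower at an unadjusted p under 0.05, 1 higher with DESeq2 and 1 with edgeR). HES4, a Notch target, was at 6.59, 16.5, 31.3, 21.6 and 20.2 with contact, 11.2, 2.49, 5.68, 8.54 and 8.20 without contact and 0, 0, 0.814, 0 and 0.855 in controls (log2 change 1.27 ± 0.43 SE, limma adjusted p = 0.0867). The embryo groups overlapped. Of 16 ephrin genes limma called 0 (1 higher and 4 lower at an unadjusted p under 0.05, 0 by DESeq2 and 0 by edgeR), and of 36 genes of TGF-beta and BMP signalling 0 (1 higher and 5 lower at an unadjusted p under 0.05, 2 lower with DESeq2 and 1 with edgeR).

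Genes by which the endometrium is usually judged receptive were examined next. Of 41 genes of receptivity and uterine secretion 0 were higher (0 at an unadjusted p under 0.05, 0 by DESeq2 and 0 by edgeR) and 2 lower, MYBPH, described above, and GPX3, a secreted glutathione peroxidase, whose call was lost in 9 of 28 alternatives. Over all genes 3.73% were higher and 1.82% lower. The oestrogen receptor ESR1 stood at 0.09 ± 0.15 and the cytokine LIF, which supports implantation in mice, at 0.06 ± 0.11 (limma adjusted p = 0.783 and 0.801). Of 19 prostaglandin genes limma called 0 (3 higher and 1 lower at an unadjusted p under 0.05, 0 by DESeq2 and 0 by edgeR). The cyclooxygenase PTGS2 had 1159, 1208, 747, 1263 and 1374 with contact and 1147, 1123, 609.6, 1233 and 1369 without, with the lowest value of each in the first run (log2 change 0.09 ± 0.22 SE, limma adjusted p = 0.858). The prostaglandin E synthase PTGES had 242, 222, 356, 289.7 and 276 with contact and 296, 326, 623, 585 and 667 without and missed the threshold (log2 change -0.79 ± 0.29 SE, limma adjusted p = 0.145). Within the runs its difference was -0.81, -1.11 and -0.42, and it was called lower once the run entered the fit as a block (limma adjusted p = 0.000532).

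Embryo transcripts were looked for in the cell libraries, since embryos had touched the contact cells. Of 36 genes that mark the morula or the trophoblast, 20 had 0 reads in the contact libraries together, 18 in the no contact libraries and 15 in the control libraries, and 26, 25 and 25 had 5 reads or fewer. These counts are not scaled to depth, and contact 108 and 97 held only 6104652 and 4195091 reads, so they cannot be compared between the groups. NANOG, SOX17, LIN28A and FGF4, genes of early embryonic cells, were at 0 in all 15 libraries. The summed list took 244 to 303 RPM in contact, 263 to 357 without contact and 273 to 324 in control libraries, which overlapped, and GATA2, PTGS2 and TFAP2A, all read in control cells too, held most of it. Of 8 tested members 0 were higher with contact (0 at an unadjusted p under 0.05, 0 by DESeq2 and 0 by edgeR) and 1 lower, TFAP2A, at -0.35 ± 0.08 (limma adjusted p = 0.0106, and 0.0895 without both shallow contact libraries). Interferon tau itself, listed as IFNT, was read in every library, at 122, 16, 40, 42 and 13 reads in contact, 63, 64, 34, 32 and 49 without contact and 74, 79, 39, 35 and 22 in control libraries. In scaled reads it spanned 32.1 to 89.3 with contact, 27.3 to 70.3 without contact and 18.8 to 71.4 in control libraries. The groups overlapped. IFNT belongs to a family of near-identical interferon genes.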

How the data were processed

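The authors deposited 1 value per gene and library, a signal equal to reads divided by a size factor of the library, called scaled reads here. Division by the worth of 1 read gave whole reads back, for 100% of values in each library (tolerance 0.01 read). Per the labels' protocols, polyadenylated RNA was sequenced as strand-specific pairs of 100 bases. DESeq2 1.18.1, featureCounts 1.6.2, HISAT2 2.1.0 and FastQC 0.71 are listed, without roles, per the submitters' processing notes. For genome build, annotation and strand setting: not given in the sources used here. The deposited fold changes and p-values were not used.

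Tests used limma 3.58.1 (R 4.3.3) with a mean-variance trend and robust empirical Bayes on log2(value + 1), 1 coefficient per group over all 15 libraries, for genes at 10 or more in at least 5 libraries. Adjusted p is Benjamini-Hochberg over the 12559 genes tested, with a threshold of 0.05. Fold changes on this scale understate the change of low genes. The fit was tested on simulated data. Alternatives on the recovered reads were edgeR 4.0.16 (quasi-likelihood), DESeq2 1.42.0 and limma-voom. Others changed the pseudocount, filter, scaling and library weights, fitted 2 groups only, added the run as a block, or left out libraries.

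The deposited table named 16378 genes and RefSeq (assembly ARS-UCD2.0) named 1358 more. The genes compared and the 46 gene lists were chosen with earlier results of these data known. Named genes are the 12 of smallest p and 10 of largest change (mean value 20 or more) in each direction, the 3 of smallest p per list and a panel of interferon and receptivity genes, 161 in all. The genes printed were picked after their values were seen, and 30 of 117 examined fall outside that rule. Promoter motifs were not analysed here, and some genes are not reported here.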

Additional observations from a re-analysis of the deposited data

Results flagged for a closer look

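In 238 sets of 5 libraries, the contact and the no contact values of each examined gene and of both library measures, 10 held a library whose gap to its nearest neighbour exceeded Dixon's critical value of 0.71. Chance alone flags about 1 in 20 such sets, or 11.9. Of the 10, 5 were high values of contact 28. IFIT1 had 20072 scaled reads there, against 15092 to 15502 in the other contact libraries, DDX58 8377 against 7156 to 7479, and STAT2 1935 against 1385 to 1539. C4A, the complement component, had 5556 and the plasminogen activator PLAT 2334, each above the other contact libraries. MYBPH was high in contact 107, at 98.8 against 50.2 to 61.3, and ND4L in contact 87, at 6313 against 5451 to 5672. Among the no contact libraries ERAP2 was high in 109, at 849 against 694 to 736, and RPL11 was low there, at 8630 against 9596 to 9953. PCNA was high in no contact 90, at 644 against 422 to 459.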

How the results depend on the processing

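The count of genes higher with contact was 306 without both shallow contact libraries and 325 to 561 when any 1 library was left out. The count of lower genes was 84 without both shallow libraries, 111 when only the embryo libraries were fitted, 344 with the run of numbers as a block and 115 to 349 without any 1 library. The cause was not tested. The other settings kept both counts within 1.5 times, at 339 to 572 higher and 162 to 334 lower. The mitochondrial share differed by -1.52 points within the last run and by -2.95 to -2.03 points when 1 library was left out (exact permutation p = 0.0159 each, 0.0357 without both shallow libraries). The share on the 10 most abundant genes differed by -2.58 points within the second run, -0.731 within the last, and -1.79 to -1.49 when 1 library was left out. Of 117 examined genes, picked after their values were seen, 87 kept their call in all 28 alternatives. This share does not cover all genes that are printed or named by the rule. Among those left out, IRF3 and SESN2 lost their calls in 16 and 7 of 28 alternatives, and ASNS and HEPACAM in 15 and 13. In 0 of 3274 gene and setting pairs did a gene called in the main fit or the alternative turn direction. A change of sign in a gene called in neither was not counted. Same-run contact and no contact libraries deviated from their group means with a median r of 0.137 (7 pairs), and libraries of different runs with -0.0789 (18 pairs). The labels give the groups no shared replicate numbers, so the runs, inferred from the library numbers, were the only block fitted. Contact 108 and 97, with 6104652 and 4195091 reads, limit genes of low level most. The planned promoter motif search was not run.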

Other observations

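Genes called in the same direction, higher or lower with contact, lay beside each other in places. In the RefSeq order of protein-coding genes, 59 of 436 placed genes called higher (13.5%) had a neighbour called the same, against 557 of 11707 tested genes placed (4.76%) with a neighbour called higher. Runs of 3 were MX2, MX1 and TMPRSS2, LIPA, IFIT2 and IFIT3, OAS2, OAS1Y and OAS1X, PARP9, DTX3L and PARP14, and, of the MHC class I list, LOC512672, BOLA-NC1 and JSP.1, whose near-identical copies make their counts uncertain. TMPRSS2, a serine protease, and LIPA, the lysosomal acid lipase, belong to no interferon list. The longest run of lower genes was 9 in the mitochondrial genome, from ATP8 to CYTB, and a further run of 3 held SULT1A1, BOLA2B and SLX1A. Reads of genes that overlap a neighbour cannot be assigned with certainty here.

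The complement component C4A was the single call among 16 complement genes, with 3777, 4156, 5556, 4024 and 3693 scaled reads in contact, 2866, 2322, 2789.9, 2674 and 1661 in no contact and 1755, 1735, 1918, 1565 and 1425 in control libraries (log2 change 0.79 ± 0.14 SE, limma adjusted p = 0.00143). All contact libraries lay above the rest. Over all genes 3.73% were called higher. FAM3B, a secreted cytokine-like protein, was too low to be tested and was singled out after its values were seen. It had 12, 3, 34, 24 and 3 reads in contact libraries, 2, 2, 1, 3 and 2 in no contact libraries and 0 in every control library.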
